A study of Homo sapiens with 156 samples.

Results

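The genes described here are 39 that encode the DNA replication machinery, the proteins that load and start the replicative helicase, copy both strands and restore chromatin behind the fork. They were taken from a list of gene symbols drawn up by function, with earlier results of these data known. Each symbol was matched through GENCODE to 1 Ensembl identifier, and all 39 were found among the 59939 identifiers of the deposited tables and passed the filter on low values in every cell line. The lines were MV411, THP1 and NOMO1, established acute myeloid leukaemia cells that carry KMT2A rearrangements, and the libraries were made from their total RNA. The study asked how expression answers to inhibition of DNMT1, the enzyme that copies CpG methylation onto newly made DNA. Each line gave 52 libraries in 26 groups of 2 libraries. GSK032 (GSK3685032), a DNMT1 inhibitor that does not enter DNA, and DAC (decitabine), a cytosine analogue that enters DNA and traps the methyltransferases, were each sampled at 400 nM on days 1, 2, 4 and 6. On day 4 both compounds were also sampled at 3.2, 16, 80, 2000 and 10000 nM. GSK862 (GSK3484862) was given at 1000 nM and GSK477 (GSK3510477), whose role the labels do not state, at 10000 nM, each for 2 and 4 days. The DMSO groups, the solvent controls, were collected on days 1, 2, 4 and 6. Whether the 2 libraries of a group are separate cultures is not labelled, and each p therefore rests on a spread that may be technical.

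Replication begins when the origin recognition complex, CDC6 and CDT1 load rings of the MCM helicase onto DNA before S phase. The kinase CDC7 with its activator DBF4, and the factors MCM10, CDC45 and the GINS complex, then turn the loaded ring into a running helicase. Polymerase alpha with primase starts each stretch of DNA, polymerases epsilon and delta extend it on the PCNA clamp, FEN1 and LIG1 join the pieces, and CHAF1A and CHAF1B deliver histones to the new DNA. Many of these genes are known targets of the E2F transcription factors and are expressed most strongly as cells enter S phase. DNMT1 itself is brought to new DNA by PCNA and UHRF1.

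The authors deposited FPKM, by definition a fragment count scaled by transcript length and by the mapped fragments of the library. All values are in that unit as deposited, and how the libraries were scaled is not given. Changes are on the scale of log2(FPKM + 0.5) against DMSO of the same day, and the figure after ± is the standard error from a limma fit across all libraries of a line. A gene passed the test at a Benjamini-Hochberg adjusted p below 0.05 over all genes tested, and a change of at least 1, a fold of 2, is counted apart. The 3 lines stand in separate tables, so they are set side by side without a test between them. In units of 1000, the sum of FPKM over a library ran from 1331 to 3073 in MV411, from 1263 to 2325 in THP1 and from 1312 to 2052 in NOMO1, and the 10 most abundant genes took 42.2 to 73.9% of it. Replicate 1 of DAC at 10000 nM in MV411 stood apart, with 3073 of these units against 1980 in its partner and the lowest correlation between partners of that line (0.9398), and the main results that rest on it are given without it as well. The myeloid markers CD33, SPI1 and LYZ were expressed in DMSO in every line, while 0 of 5 erythroid markers had a median of at least 1 FPKM there and the lymphoid MS4A1, CD3E and CD2 and the stromal COL3A1 were at or near 0. Other genes of those lists were present in DMSO: NKG7, a granule protein of natural killer and T cells, had medians of 39 FPKM in MV411, 14.4 FPKM in THP1 and 119 FPKM in NOMO1, the T cell receptor chain CD3D 9.41 FPKM in NOMO1, and the keratin KRT18 6.69 FPKM in MV411 and 27.1 FPKM in NOMO1. In bulk RNA, fewer cells in S phase and less of a transcript in each cell cannot be told apart.

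In solvent, subunits of the MCM helicase and the PCNA clamp led the 39 transcripts in abundance, and CHAF1B, the middle subunit of the chromatin assembly factor, was the least abundant. Over the 24 DMSO libraries MCM4 averaged 283.5 FPKM, MCM7 250.2 FPKM, MCM5 203.5 FPKM and PCNA 187 FPKM, against 9.11 FPKM for CHAF1B. As the median and range of 8 DMSO libraries, MCM4 stood at 357 FPKM (313 to 509) in MV411, 240.4 FPKM (215 to 275) in THP1 and 234 FPKM (206 to 252) in NOMO1. MCM4 was therefore the first of the 39 in MV411 and THP1, and MCM7 the first in NOMO1, at 303 FPKM (277 to 336). CHAF1B ranked last in all 3 lines. PCNA ranged more widely between the lines than MCM4, at 296 FPKM (248 to 399) in MV411, 96.2 FPKM (72.3 to 119) in THP1 and 156 FPKM (144 to 185) in NOMO1, and these ranges do not overlap between any of the lines. RFC2 also differed widely, with 153 FPKM (143 to 162) in NOMO1, 47.2 FPKM (38.5 to 59.9) in MV411 and 39.8 FPKM (30.55 to 45.7) in THP1. DBF4 was highest in NOMO1, with 86.3 FPKM (79.2 to 92.3) in NOMO1 against 48.9 FPKM (46 to 55.5) in MV411 and 34.9 FPKM (32.6 to 42.5) in THP1.

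The promoters of these genes carry the short words that E2F factors bind more often than promoters at large. RefSeq promoter sequences of GRCh38.p14, 250 bases before to 50 bases after the start site, were at hand for 34 of the 39 genes. A search on both strands for TTTGGCGC, TTTGCCGC, TTTCGCGC and TTTCCCGC found at least 1 word in 17 of the 34 (50.0%), against 3.3% of all 27305 promoters and 5.6% of those of 9750 genes tested in all 3 lines. The plain word CCAAT was present in 55.9% of the 34, against 35.7% of all promoters and 37.0% of those of tested genes. The median number of CpG dinucleotides was 30 in the 34, against 14 in all promoters and 26 in those of tested genes. Among licensing genes 6 of 8 promoters held an E2F word. A match describes the letters in this window and shows no binding. The 5 promoters printed are of genes that carry the results: MCM6 and MCM2, which lie among the lowest with DAC, CDC6, which lies among the lowest with GSK032, PCNA, the clamp, and LIG1, which separates the compounds at the highest dose. Each runs 5' to 3' on the gene's own strand, with the E2F words in capitals, and the words of MCM6 and MCM2 overlap in pairs. They are MCM6 at chr2:135876394-135876693 (minus strand), MCM2 at chr3:127598161-127598460 (plus), CDC6 at chr17:40287629-40287928 (plus), PCNA at chr20:5126573-5126872 (minus) and LIG1 at chr19:48170295-48170594 (minus).
MCM6: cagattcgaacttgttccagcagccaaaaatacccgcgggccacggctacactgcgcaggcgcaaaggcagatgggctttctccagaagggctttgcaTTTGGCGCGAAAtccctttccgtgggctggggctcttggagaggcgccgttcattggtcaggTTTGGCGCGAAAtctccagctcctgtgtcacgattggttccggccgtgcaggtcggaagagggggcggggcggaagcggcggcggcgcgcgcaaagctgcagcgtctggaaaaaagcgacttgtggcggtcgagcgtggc
MCM2: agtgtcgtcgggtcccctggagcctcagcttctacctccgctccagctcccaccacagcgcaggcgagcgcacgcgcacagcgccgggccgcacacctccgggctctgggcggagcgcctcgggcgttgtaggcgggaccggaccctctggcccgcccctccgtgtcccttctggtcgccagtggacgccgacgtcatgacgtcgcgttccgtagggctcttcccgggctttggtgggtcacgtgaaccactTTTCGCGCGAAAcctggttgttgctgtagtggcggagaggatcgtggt
CDC6: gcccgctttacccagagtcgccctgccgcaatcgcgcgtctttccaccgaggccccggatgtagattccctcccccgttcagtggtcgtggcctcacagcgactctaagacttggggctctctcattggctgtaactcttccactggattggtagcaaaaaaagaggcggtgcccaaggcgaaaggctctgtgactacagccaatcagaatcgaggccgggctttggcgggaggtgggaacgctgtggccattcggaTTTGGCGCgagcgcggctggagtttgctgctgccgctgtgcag
PCNA: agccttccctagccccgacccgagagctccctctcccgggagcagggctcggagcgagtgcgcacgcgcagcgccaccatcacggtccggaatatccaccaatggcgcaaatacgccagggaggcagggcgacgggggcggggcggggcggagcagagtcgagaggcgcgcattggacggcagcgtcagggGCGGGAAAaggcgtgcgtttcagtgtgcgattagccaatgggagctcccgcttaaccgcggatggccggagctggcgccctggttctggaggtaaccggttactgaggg
LIG1: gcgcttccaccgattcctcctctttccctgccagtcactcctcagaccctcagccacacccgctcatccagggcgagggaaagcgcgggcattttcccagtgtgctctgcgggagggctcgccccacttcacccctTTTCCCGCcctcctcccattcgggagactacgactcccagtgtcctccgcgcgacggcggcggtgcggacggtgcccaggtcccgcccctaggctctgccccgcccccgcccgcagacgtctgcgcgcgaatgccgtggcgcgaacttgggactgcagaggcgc

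**Figure D1:**
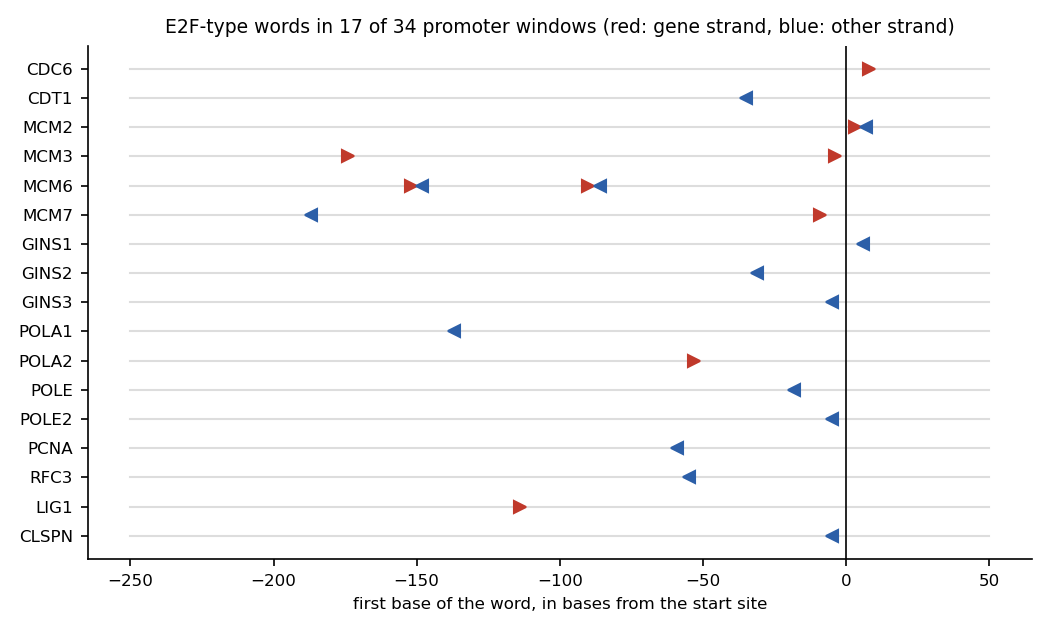
Position of each E2F word, in bases from the start site, in the 17 member promoters that hold one (1 row per gene, marks on either strand). Words lie on both sides of the start site, most of them before it, and MCM6 holds 4.

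The median change was somewhat lower for genes with an E2F word than for those without in each line, with both compounds, at 400 and at 10000 nM. With GSK032 at 400 nM on day 4 the 17 genes with a word had a median change of -1.14 and the 17 without one -1.11 in MV411. The same medians were -0.65 and -0.54 in THP1 cells, and -0.19 and -0.16 in NOMO1. With DAC the medians were -1.14 with and -1.12 without a word in MV411, -0.72 and -0.54 in THP1 cells, and -0.79 and -0.60 in NOMO1. At 10000 nM the medians with and without a word were -2.00 and -1.84 with GSK032 in MV411, -1.06 and -0.87 in THP1 cells, and -0.64 and -0.49 in NOMO1. With DAC at that dose they were -1.95 and -1.71 in MV411, against -0.85 and -0.67 in THP1 cells and -1.05 and -0.82 in NOMO1. These are descriptions with no test.

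After 4 days at 400 nM nearly every replication gene was lower in MV411 and THP1 with either compound, whereas in NOMO1 most were lower with DAC and few with GSK032. With GSK032, 38 of the 39 fell in MV411, 27 of them at least 2-fold, against 17.3% of all tested genes that fell and 2.76% that fell at least 2-fold. In THP1 36 fell, none of them 2-fold, against a background of 13.8%. In NOMO1 7 fell, against 8.29% of all genes, and the count was 0 where libraries were scaled to equal FPKM sums. With DAC, 38 fell in MV411, 26 of them at least 2-fold (background 19% lower, 3.34% at least 2-fold lower). In THP1 37 fell with DAC against a background of 19.4%, and in NOMO1 37 fell against 26.2%. The median change of the 39 was -1.11 with GSK032 and -1.14 with DAC in MV411, -0.56 and -0.65 in THP1 cells, and -0.17 and -0.63 in NOMO1, while the median of all tested genes was 0 or close to 0. A set of 7 of the 39 fell with GSK032 in all 3 lines and 36 did so with DAC. The share of all tested genes that fell in all 3 lines was not counted, so these 2 counts have no background beside them. Both compounds share their DMSO libraries. Scaling to equal FPKM sums moves the median of all genes by 0.25 with GSK032 in MV411 and by -0.34 with DAC in THP1. In a fit of the compared libraries alone, with few libraries to set the spread, GSK032 lowered 6 in THP1 and 2 in NOMO1.

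**Figure D2:**
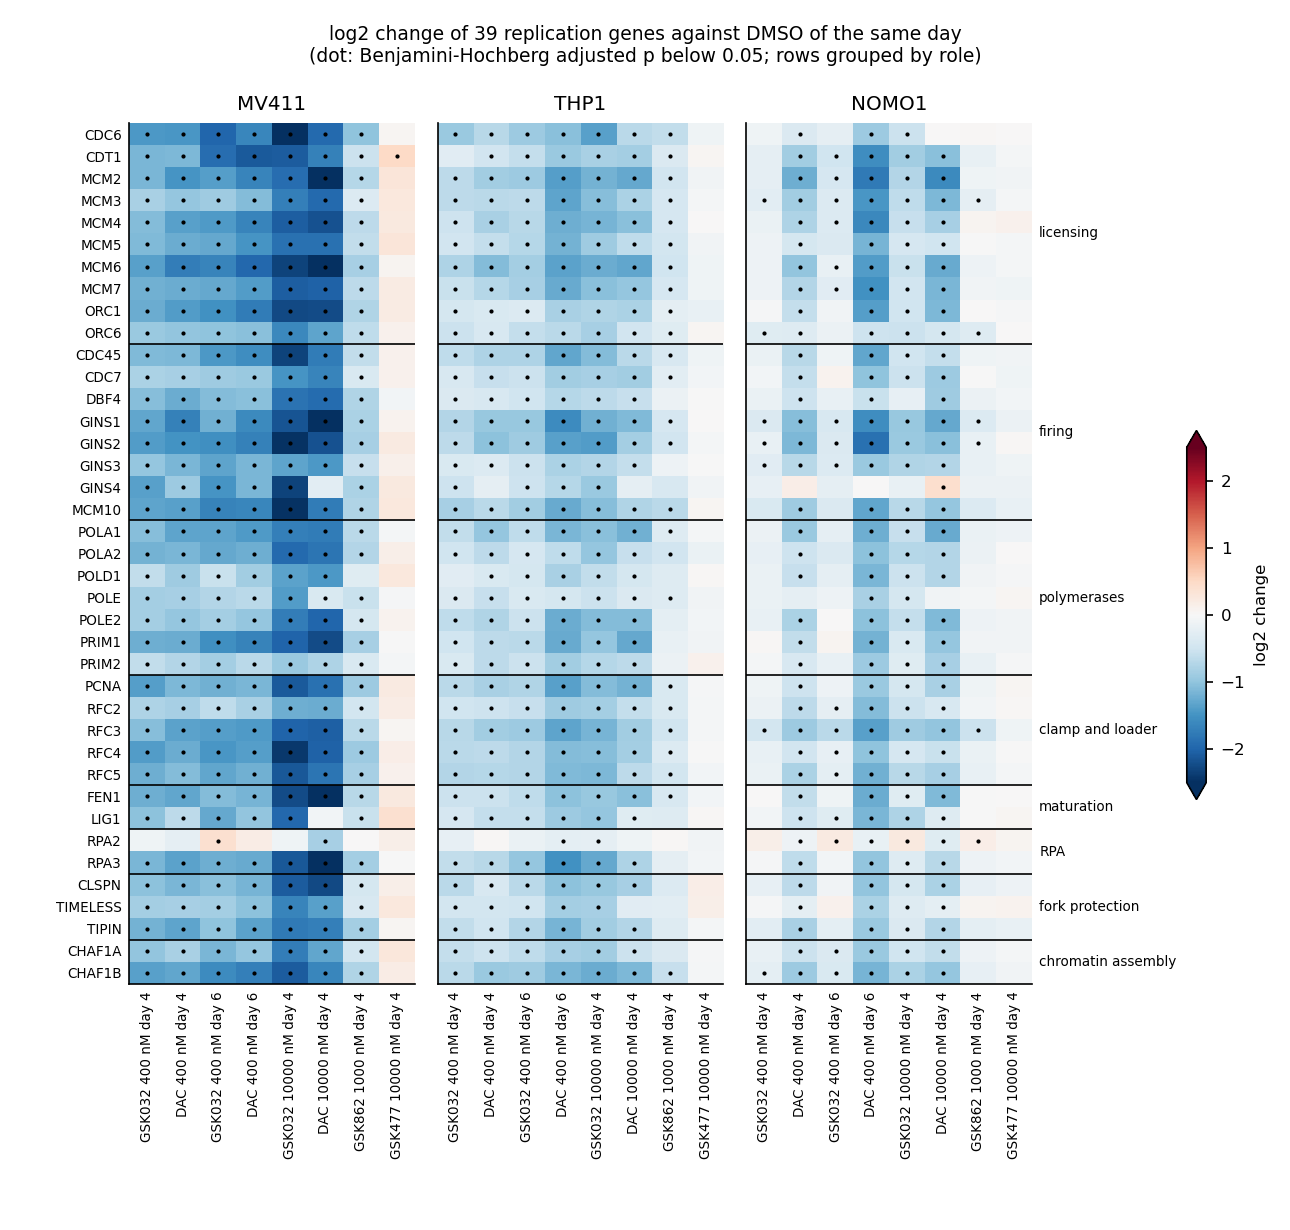
Log2 change against DMSO of the 39 genes (rows, grouped by role) in 8 comparisons of each of the 3 lines (columns), with a dot where the adjusted p was below 0.05. Blue runs nearly unbroken down the columns of MV411 and THP1 other than that of GSK477, where no gene fell by the test. In NOMO1 blue is deeper for DAC than for GSK032 at the same dose and day for most genes.

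Licensing factors load the helicase, and all 10 fell in MV411 with each compound (8 of them at least 2-fold with each). In THP1 9 fell with GSK032 and 10 with DAC, and in NOMO1 2 with GSK032 and 10 with DAC. MCM4, a helicase subunit and the most abundant of them, had 135 and 166 FPKM with GSK032 and 129 and 119.5 FPKM with DAC, against 321 and 313 FPKM in DMSO in MV411. The same gene had 166 and 149.6 FPKM with GSK032 and 135 and 124 FPKM with DAC, against 240.3 and 215 FPKM in DMSO in THP1. In NOMO1 it had 184 and 189.8 FPKM with GSK032 and 124 and 121 FPKM with DAC, against 206 and 212 FPKM in DMSO. The treated libraries lay below the DMSO libraries in all 3 lines, but the GSK032 libraries of NOMO1 only narrowly. The change of MCM4 with GSK032 was -1.08 ± 0.13 in MV411 (adjusted p = 1.47e-07) and -0.53 ± 0.10 in THP1 (adjusted p = 0.00014), and in NOMO1 it was -0.16 ± 0.08 and did not pass (adjusted p = 0.209). With DAC it was -1.35 ± 0.13 in MV411, -0.81 ± 0.10 in THP1 and -0.77 ± 0.08 in NOMO1, and all passed. CDC6, the loader that hydrolyses ATP at the origin, had the largest change with GSK032 in MV411 (-1.44 ± 0.15) and THP1 (-0.93 ± 0.10), and in NOMO1 it was -0.11 ± 0.13 (adjusted p = 0.663). MCM6 had the largest with DAC in the same lines, at -1.73 ± 0.13 in MV411 and -1.09 ± 0.10 in THP1, and MCM2 the largest in NOMO1 (-1.22 ± 0.09). CDT1, which brings the MCM ring to the origin, was among the least changed with GSK032 in THP1 (-0.28 ± 0.11, adjusted p = 0.0726). In NOMO1 only MCM3 (-0.27) and ORC6 (-0.30) of the licensing group fell with GSK032, while ORC1 stood at -0.02.

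Firing factors turn the loaded ring into a helicase, and all 8 fell with each compound in MV411 (6 at least 2-fold with each). THP1 had 8 lower with GSK032 and 7 with DAC, and NOMO1 3 with GSK032 and 7 with DAC. DBF4, the activator of CDC7 kinase, had 20.6 and 24.5 FPKM with GSK032 and 21 and 18.5 FPKM with DAC, against 46.8 and 47.7 FPKM in DMSO in MV411. It had 25.2 and 25.8 FPKM with GSK032 and 26.9 and 23 FPKM with DAC, against 33 and 32.7 FPKM in DMSO in THP1. In NOMO1 DBF4 had 76.3 and 76.1 FPKM with GSK032 and 59.1 and 59.4 FPKM with DAC, against 87 and 83.1 FPKM in DMSO. No treated library overlapped DMSO, and the distance was widest in MV411. DBF4 changed by -1.06 ± 0.11 with GSK032 and -1.24 ± 0.11 with DAC in MV411, by -0.36 ± 0.10 and -0.40 ± 0.10 in THP1, and by -0.52 ± 0.10 with DAC in NOMO1, where GSK032 gave -0.16 ± 0.10 (adjusted p = 0.327). The 4 GINS subunits, which bind CDC45 and MCM in the active helicase, did not move alike. GINS2 fell with both compounds in all 3 lines, with changes of -1.40 with GSK032 and -1.49 with DAC in MV411, -0.65 and -1.03 in THP1 cells, and -0.18 and -1.13 in NOMO1. GINS1 likewise fell in each of these comparisons, most with DAC in MV411 (-1.70 ± 0.15). GINS4 fell with both compounds in MV411 (-1.35 with GSK032, -0.90 with DAC), the last losing its call without DMSO replicate 1 (-0.64) or DAC replicate 2 (-0.61), but with DAC it was -0.23 ± 0.17 in THP1 (adjusted p = 0.301; under equal FPKM sums -0.58, which passed) and 0.17 ± 0.16 in NOMO1 (adjusted p = 0.403). MCM10, which helps the helicase separate the strands, changed by -0.82 ± 0.14 with GSK032 in THP1. In NOMO1 it was -0.38 ± 0.14 with GSK032, a large value for that line that did not pass (adjusted p = 0.0627).

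The 7 genes of polymerase and primase subunits fell in MV411 with each compound, but only 3 of them at least 2-fold. In THP1 6 fell with GSK032 and 7 with DAC, and in NOMO1 0 and 6. POLD1, the catalytic subunit of polymerase delta, had 77 and 75.8 FPKM with GSK032 and 72.9 and 54.3 FPKM with DAC, against 116 and 119 FPKM in DMSO in MV411. In THP1 it had 56.3 and 66.3 FPKM with GSK032 and 55.9 and 58.2 FPKM with DAC, against 71.4 and 77.5 FPKM in DMSO. NOMO1 had 55.6 and 58.5 FPKM with GSK032 and 41 and 44.7 FPKM with DAC, against 57.8 and 71 FPKM in DMSO. The GSK032 libraries overlapped DMSO in NOMO1 and lay just below it in THP1. The change of POLD1 with GSK032 was -0.62 ± 0.18 in MV411 (adjusted p = 0.0074), -0.28 ± 0.13 in THP1 (adjusted p = 0.135) and -0.17 ± 0.16 in NOMO1 (adjusted p = 0.583), so only the first passed. With DAC the changes were -0.90 ± 0.18 in MV411, -0.38 ± 0.13 in THP1 cells and -0.58 ± 0.16 in NOMO1, and all 3 passed. POLA1, the catalytic subunit of polymerase alpha, had the largest change of this group with DAC in every line, -1.33 in MV411, -0.96 in THP1 cells and -0.93 in NOMO1. PRIM2, the large primase subunit, was among the least changed in MV411 (-0.61 with GSK032, -0.73 with DAC). POLE, the catalytic subunit of polymerase epsilon, was the one subunit that did not pass with DAC in NOMO1 (-0.23 ± 0.14, adjusted p = 0.179), and none of the 7 passed there with GSK032, PRIM1 standing at 0.02.

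The sliding clamp PCNA and the 4 RFC subunits that load it fell with both compounds in MV411 and THP1, and in NOMO1 1 of the 5 fell with GSK032 and 5 with DAC. PCNA had 94.3 and 106 FPKM with GSK032 and 126 and 114 FPKM with DAC, against 275 and 248 FPKM in DMSO in MV411. It had 48.9 and 45.4 FPKM with GSK032 and 45.6 and 40.1 FPKM with DAC, against 78.3 and 72.3 FPKM in DMSO in THP1. NOMO1 had 138 and 133 FPKM with GSK032 and 98.4 and 104 FPKM with DAC, against 145 and 147 FPKM in DMSO. With GSK032 the MV411 values were well below DMSO, and those of NOMO1 lay just below it without overlap. PCNA changed by -1.38 ± 0.16 with GSK032 and -1.12 ± 0.16 with DAC in MV411, by -0.67 ± 0.07 and -0.81 ± 0.07 in THP1, and by -0.53 ± 0.08 with DAC in NOMO1, where GSK032 gave -0.11 ± 0.08 (adjusted p = 0.407). Among the loader subunits RFC4 was the most changed with GSK032 in MV411 (-1.40) and RFC5 in THP1 (-0.72). RFC3 was the one clamp gene that fell with GSK032 in NOMO1 (-0.45 ± 0.08, adjusted p = 0.000192), and it had the largest change of all 39 there.

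Okazaki fragment processing, fork protection and chromatin assembly genes followed the same pattern by line. FEN1, the flap endonuclease, had 32.5 and 33.8 FPKM with GSK032 and 33.6 and 29 FPKM with DAC, against 84.9 and 71.8 FPKM in DMSO in MV411. In THP1 it had 45 and 45.1 FPKM with GSK032 and 46.2 and 43.5 FPKM with DAC, against 65.4 and 65.8 FPKM in DMSO. NOMO1 gave 72.7 and 71.6 FPKM with GSK032 and 45.2 and 48.5 FPKM with DAC, against 70.1 and 73.7 FPKM in DMSO. There the GSK032 libraries overlapped DMSO and the DAC libraries lay far below. FEN1 changed by -1.22 ± 0.16 with GSK032 and -1.31 ± 0.16 with DAC in MV411, by -0.54 ± 0.07 and -0.54 ± 0.07 in THP1, and in NOMO1 by -0.61 ± 0.07 with DAC, with GSK032 at 0.01 ± 0.07. LIG1, which seals the nicks that FEN1 leaves, fell less with DAC than most members in MV411 (-0.66 ± 0.14) and changed by -1.03 ± 0.14 with GSK032. RPA3, the small subunit of the single-strand binding protein RPA, had 25 and 30.8 FPKM with GSK032 and 25.9 and 22.8 FPKM with DAC, against 67.5 and 57.1 FPKM in DMSO in MV411. In NOMO1 it had 63.2 and 64.5 FPKM with GSK032 and 39.6 and 44.8 FPKM with DAC, against 66 and 64.8 FPKM in DMSO. In THP1 RPA3 had 39.4 and 36.2 FPKM with GSK032 and 37 and 34.9 FPKM with DAC, against 59.7 and 56.8 FPKM in DMSO. RPA3 thus lay next to DMSO with GSK032 in NOMO1 and well below it with DAC, and its changes were -1.15 ± 0.14 with GSK032 in MV411, -0.62 ± 0.09 in THP1 and -0.03 ± 0.13 in NOMO1 (adjusted p = 0.952). RPA2, the middle subunit of the same complex, did not follow it and is described after the other genes.

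CLSPN, the adaptor through which ATR activates CHK1 at stalled forks, had 13.4 and 13.8 FPKM with GSK032 and 13.1 and 11.8 FPKM with DAC, against 32.3 and 24.3 FPKM in DMSO in MV411. THP1 had 16.8 and 17.9 FPKM with GSK032 and 20.7 and 21.7 FPKM with DAC, against 27.7 and 28.6 FPKM in DMSO. In NOMO1 CLSPN had 19.5 and 20.2 FPKM with GSK032 and 14 and 14.8 FPKM with DAC, against 23.3 and 22.8 FPKM in DMSO. All treated libraries lay below DMSO, and in THP1 those with GSK032 were the lower of the treated ones. CLSPN changed by -1.02 ± 0.16 with GSK032 in MV411, -0.68 ± 0.12 in THP1 and -0.21 ± 0.10 in NOMO1 (adjusted p = 0.161). Its partners TIMELESS and TIPIN, which hold helicase and polymerase together, fell with GSK032, with changes of -0.84 and -1.18 in MV411 and of -0.45 and -0.61 in THP1. CHAF1A, the large subunit of chromatin assembly factor 1, had 20.8 and 23.3 FPKM with GSK032 and 27.4 and 22.8 FPKM with DAC, against 48.3 and 40.1 FPKM in DMSO in MV411. THP1 had 19.8 and 23.2 FPKM with GSK032 and 23.3 and 21.4 FPKM with DAC, against 32.6 and 32.3 FPKM in DMSO for CHAF1A. In NOMO1 it had 22.6 and 22.5 FPKM with GSK032 and 17.6 and 17.5 FPKM with DAC, against 24.7 and 26.5 FPKM in DMSO. The treated libraries lay below DMSO in every line, while those of the 2 compounds overlapped in MV411 and THP1. CHAF1A changed by -0.98 ± 0.14 with GSK032 in MV411, -0.59 ± 0.12 in THP1 and -0.18 ± 0.08 in NOMO1 (adjusted p = 0.151). CHAF1B fell with GSK032 in all 3 lines, with changes of -1.35 in MV411, -0.67 in THP1 cells and -0.25 in NOMO1.

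Most of the decrease came after day 2. On day 1 none of the 39 passed with either compound at 400 nM in any line, against 0.00454% of all genes lower with GSK032 in MV411, 0.00861% in THP1 and 0.00963% in NOMO1, and 1.69%, 0.702% and 0.949% with DAC in the same lines. At an unadjusted p below 0.05 the day 1 counts were 0 with GSK032 in every line, and 18 in MV411 and 1 each in THP1 and NOMO1 with DAC. The day 1 median of the 39 with DAC in MV411 was already -0.25, against -0.02 for all tested genes. By day 2 DAC had lowered 18 in MV411, 11 in THP1 and 17 in NOMO1, against backgrounds of 6.96%, 6.26% and 10.3%. GSK032 had by then lowered 1 in MV411 (GINS3, -0.40 ± 0.10), 7 in THP1 and 0 in NOMO1 (backgrounds 2.48%, 4.12% and 0.424%), where 2 had an unadjusted p below 0.05. On day 6, GSK032 had lowered 38 in MV411 (16.7%), 38 in THP1 (17.3%) and 16 in NOMO1 (14%), and DAC 38, 39 and 38 in the same order of lines (16.7%, 23.1% and 28.9%). The median change on day 6 was -1.28 with GSK032 and -1.23 with DAC in MV411, -0.65 and -1.09 in THP1 cells, and -0.23 and -1.14 in NOMO1. In THP1 0 of 39 reached a 2-fold decrease with GSK032 on day 6 and 23 did with DAC, and in NOMO1 the counts were 0 and 25 (at least 2-fold lower among all genes, 0.788% with GSK032 and 3.84% with DAC in THP1, 0.987% and 9.75% in NOMO1). The NOMO1 count of 16 with GSK032 was 1 under equal FPKM sums.

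MCM6, a helicase subunit that lay among the earliest to fall with DAC, shows the course in its libraries. In MV411 it had 95 and 108 FPKM on day 1, 82.2 and 95.5 on day 2, 35.8 and 39.4 on day 4 and 32.9 and 28.2 on day 6 with GSK032. With DAC the values were 73.6 and 99.5 FPKM on day 1, 66.7 and 69.1 on day 2, 29.9 and 27.7 on day 4 and 27.3 and 22.1 on day 6. DMSO gave 111 and 125 FPKM on day 1, 104 and 122 on day 2, 96.7 and 96.5 on day 4 and 113 and 83.8 on day 6. The DAC libraries were below those of GSK032 on day 2 and the compounds were both far below DMSO from day 4. In NOMO1 MCM6 had 52.9 and 53.5 FPKM on day 1, 52.4 and 55.3 on day 2, 47.3 and 46 on day 4 and 45.9 and 45.2 on day 6 with GSK032. DAC gave there 55.3 and 50.6 FPKM on day 1, 38.7 and 38.3 on day 2, 25.1 and 26.2 on day 4 and 19.2 and 19.4 on day 6. The DMSO libraries had 56.5 and 55.9 FPKM on day 1, 57 and 55.5 on day 2, 50.5 and 52 on day 4 and 52.1 and 51.6 on day 6. Here the GSK032 libraries stayed close to DMSO on all 4 days, and the DAC libraries lay well below both from day 2. On day 2 the change with DAC was -0.73 ± 0.13 in MV411, -0.53 ± 0.10 in THP1 and -0.54 ± 0.05 in NOMO1, and with GSK032 it was -0.34 ± 0.13 in MV411 (adjusted p = 0.136).

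The change from day 1 to day 6 was itself tested as an interaction of compound and day. With GSK032 the effect was lower on day 6 than on day 1 for 37 genes in MV411, 34 in THP1 and 5 in NOMO1, against backgrounds of 10.2%, 9.57% and 6.12%. With DAC it was lower for 36, 38 and 38 (7.7%, 14.8% and 22.6%). DMSO cultures also moved with time in MV411: 14 of the 39 were lower on day 6 than on day 1 (median -0.34, background 6.97%), with 1 lower in NOMO1 (0.925%), and 7 were higher in THP1 (median 0.17, background 2.84% higher). Treated libraries were compared with DMSO of their own day throughout.

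**Figure D3:**
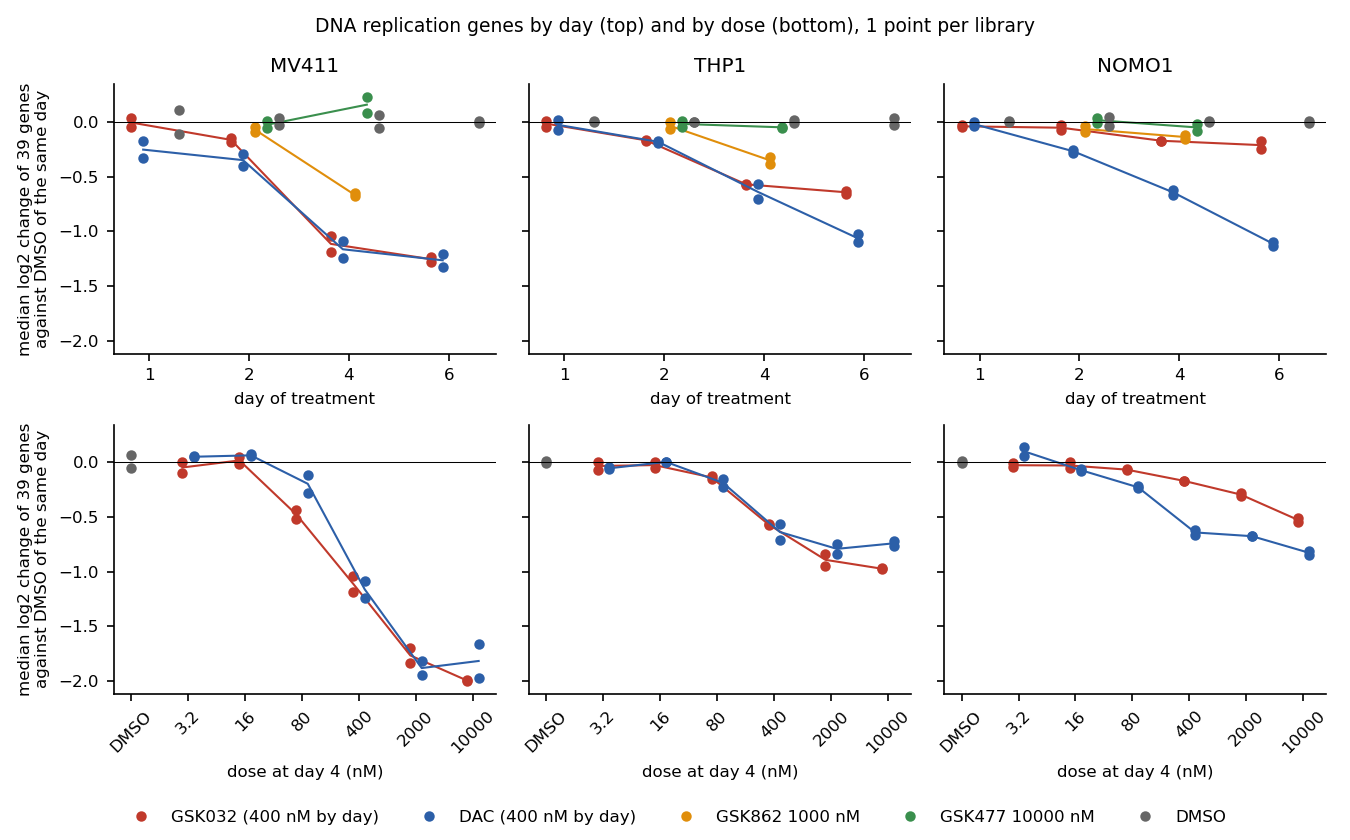
Median log2 change of the 39 genes in each library against the mean DMSO value of its day, by day at 400 nM (top) and by dose on day 4 (bottom, log axis, DMSO at the low end), for GSK032, DAC and DMSO in the 3 lines. Medians stay near 0 up to 16 nM, and with GSK032 at 400 nM reach -1.28 in MV411 but -0.23 in NOMO1 by day 6.

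By dose on day 4, no gene passed by limma at 3.2 or 16 nM with either compound in any line. Of all genes, 0, 0 and 0.00482% were lower with GSK032 at 3.2 nM in MV411, THP1 and NOMO1, and 0.0409%, 0 and 0.00482% at 16 nM. With DAC these shares were 0.345%, 0.0431% and 0.0144% at 3.2 nM and 1.21%, 0.921% and 1.97% at 16 nM. At an unadjusted p below 0.05 the members lower at 16 nM with DAC numbered 1, 2 and 6 in the same lines, and 0 with GSK032. At 80 nM GSK032 lowered 28 in MV411 (background 8.62%) and 0 in THP1 and NOMO1 (0.0775% and 0.0241%, with 12 and 3 lower at an unadjusted p below 0.05), while DAC lowered 4 in MV411 (3.91%), 13 in THP1 (6.6%) and 21 in NOMO1 (18%). MV411 was therefore the line with the most genes past the test for GSK032 at this dose and NOMO1 for DAC. At 2000 nM GSK032 lowered 38, 39 and 23 in MV411, THP1 and NOMO1 (21.9%, 19.1% and 16.1%), and DAC 39, 37 and 36 (26.6%, 23.8% and 27.2%). At 10000 nM the counts were 38, 39 and 36 with GSK032 (24.6%, 21.6% and 22.3%) and 37, 36 and 36 with DAC (30.1%, 26.2% and 29%). The NOMO1 count of 36 with GSK032 was 22 under equal FPKM sums. The median at 10000 nM was -2.00 with GSK032 and -1.83 with DAC in MV411, -0.97 and -0.77 in THP1 cells, and -0.53 and -0.82 in NOMO1. A slope over the 6 doses was negative and past the test for 38, 39 and 37 of the genes with GSK032 (28.3%, 25.6% and 24.8%) and for 39, 38 and 36 with DAC (32.5%, 31.8% and 32.4%).

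MCM4 gives the dose course in its libraries. In MV411 with GSK032 it had 302 and 292 FPKM at 3.2 nM, 294 and 339 FPKM at 16 nM, 216 and 225 FPKM at 80 nM, 135 and 166 FPKM at 400 nM, 95.9 and 88.9 FPKM at 2000 nM and 78.8 and 72 FPKM at 10000 nM. DAC gave 307 and 344 FPKM at 3.2 nM, 308 and 339.6 FPKM at 16 nM, 278 and 267 FPKM at 80 nM, 129 and 119.5 FPKM at 400 nM, 74 and 60.1 FPKM at 2000 nM and 74.6 and 64.2 FPKM at 10000 nM in the same line. The DMSO libraries of that day had 321 and 313 FPKM. From 80 nM up every treated library lay below DMSO and below the libraries at 3.2 and 16 nM, and the DAC libraries at 10000 nM were level with those at 2000 nM, GSK032 being the lower compound at 80 nM and DAC at 2000 nM. In NOMO1 MCM4 had 198 and 205 FPKM at 3.2 nM, 216 and 202 FPKM at 16 nM, 216 and 196 FPKM at 80 nM, 184 and 189.8 FPKM at 400 nM, 164 and 161 FPKM at 2000 nM and 146 and 135 FPKM at 10000 nM with GSK032. With DAC NOMO1 had 219 and 237 FPKM at 3.2 nM, 199 and 218 FPKM at 16 nM, 164 and 216 FPKM at 80 nM, 124 and 121 FPKM at 400 nM, 116 and 114 FPKM at 2000 nM and 110.2 and 124 FPKM at 10000 nM. Against 206 and 212 FPKM in DMSO, the GSK032 libraries lay further below at each step from 400 nM, while the DAC libraries were at much the same level at 400, 2000 and 10000 nM.

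GSK862 at 1000 nM lowered most of the genes on day 4 in MV411 and THP1 but few in NOMO1, and hardly any on day 2. On day 2 it lowered 1 of the 39 in THP1 (background 0.84%) and 0 by limma in MV411 and NOMO1 (1.49% and 1.04%), where 1 and 3 were lower at an unadjusted p below 0.05. On day 4 it lowered 37 in MV411 (median -0.67, background 11.6% lower), 25 in THP1 (-0.36, 5.96%) and 5 in NOMO1 (-0.13, 7.37%). In THP1 the count was 5 where libraries were scaled to equal FPKM sums and 15 without replicate 1 of that group, and in NOMO1 it was 1 under equal sums and 3 without replicate 2. In a fit of the compared libraries alone the day 4 counts were 19 in MV411 and 0 in THP1 and NOMO1. GSK477 at 10000 nM lowered 0 of 39 on day 4 in any line by limma (backgrounds 1.11%, 0.228% and 0.361% in MV411, THP1 and NOMO1), and THP1 had 1 lower at an unadjusted p below 0.05. In MV411 it raised 1, the licensing factor CDT1, by 0.49 ± 0.13 (adjusted p = 0.0418, background 0.286% higher). MCM4 with GSK477 had 373 and 374 FPKM in MV411, against 321 and 313 FPKM in DMSO. Set directly against GSK477 at the same dose and day, GSK032 was lower for 38, 38 and 32 genes in MV411, THP1 and NOMO1 (26.9%, 21.5% and 21.4% of all genes) and DAC for 38, 37 and 36 (31.1%, 26.5% and 28.9%).

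GSK032 and DAC were compared directly at 9 matched points of dose and day per line, 27 in all, a positive difference being higher with GSK032. At 400 nM most of the genes were higher with GSK032 than with DAC in NOMO1 on days 4 and 6 and in THP1 on day 6. On day 6 in NOMO1, 38 of the 39 were higher with GSK032 than with DAC (median 0.91, background 26.2% higher and 23.8% lower at any size). Of these, 14 were at least 2-fold higher, a count that has no share of all tested genes beside it. In THP1 30 were higher with GSK032 (median 0.37, 12% higher and 10.6% lower), and in MV411 0 of 39 differed by limma in either direction (5.62% and 3.29%), with 4 higher and 2 lower at an unadjusted p below 0.05. On day 4 the genes higher with GSK032 numbered 33 in NOMO1 (23.2%), 11 in THP1 (10.1%) and 1 in MV411 (3.9%), the last being POLA1 (0.27 ± 0.07). On day 4 RPA2 in THP1 was the only gene lower with GSK032 than with DAC (-0.23 ± 0.08; backgrounds 14.4% lower in THP1, 3.72% in MV411 and 22.4% in NOMO1). On day 2 NOMO1 had 14 higher with GSK032 (4.84%), MV411 had 1 (POLA1, 0.41 ± 0.07; 0.559%) and THP1 0 (0.598%), with 3 higher at an unadjusted p below 0.05. The THP1 count of 11 was 4 without GSK032 replicate 1 and 1 without DAC replicate 2. The THP1 count of 30 on day 6 was 5 in a fit of the compared libraries alone. The MV411 count of 1 on day 4 was 20 under equal FPKM sums, a scaling that moves the median of all genes by 0.38 in that comparison.

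In NOMO1 on day 6 MCM2 had 128 and 133 FPKM with GSK032 and 53.1 and 48.9 FPKM with DAC, against 171 and 178 FPKM in DMSO. GINS2 had 15.5 and 16.2 FPKM with GSK032 and 5.21 and 5.44 FPKM with DAC, against 20.2 and 21.1 FPKM in DMSO. MCM4 had 185 and 188 FPKM with GSK032 and 75.2 and 79.7 FPKM with DAC, against 227 and 249.6 FPKM in DMSO. All 3 separate fully into DAC lowest, then GSK032, then DMSO. The difference between GSK032 and DAC was 1.35 ± 0.09 for MCM2, 1.49 ± 0.06 for GINS2, the largest of the 39, and 1.26 ± 0.08 for MCM4. DBF4 had the smallest of those that passed (0.38 ± 0.10), and ORC6 was next (0.39 ± 0.06). In MV411 on day 6, where no gene passed, MCM4 differed by 0.23 (95% interval -0.04 to 0.50) and GINS2 by 0.15 (95% interval -0.13 to 0.44), so these intervals leave out the size of the NOMO1 difference but not a smaller one. In THP1 on day 6 PCNA differed by 0.60 ± 0.07 and POLE2, the second subunit of polymerase epsilon, by 0.70 ± 0.10.

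At 10000 nM on day 4 a few genes parted from the rest and were much lower with GSK032 than with DAC. The genes named in this paragraph were chosen after their values were seen. In MV411 GINS4 had 5.75 and 5.58 FPKM with GSK032 and 26.7 and 23.4 FPKM with DAC, against 31.2 and 40.5 FPKM with GSK477 and 36 and 25 FPKM in DMSO. LIG1 had 14.9 and 15.5 FPKM with GSK032 and 71.5 and 46.1 FPKM with DAC, against 73.9 and 86.8 FPKM with GSK477 and 63.5 and 57.5 FPKM in DMSO. POLE had 22.8 and 25.6 FPKM with GSK032 and 55.7 and 43.5 FPKM with DAC, against 67.7 and 57.7 FPKM with GSK477 and 63.3 and 65.2 FPKM in DMSO. The GSK032 libraries of these genes lay far below all others, the DAC libraries of GINS4 and LIG1 lay on either side of the lowest DMSO library, and those of POLE lay below DMSO. The direct difference was -2.05 ± 0.21 for GINS4 (adjusted p = 8.66e-09), -1.89 ± 0.14 for LIG1 (adjusted p = 5.32e-12) and -1.01 ± 0.10 for POLE (adjusted p = 5.86e-09). Against DMSO GINS4 changed by -2.31 ± 0.21 with GSK032 and stood at -0.26 ± 0.21 with DAC (adjusted p = 0.34), and under equal FPKM sums the DAC change passed at -0.73 (adjusted p = 0.00584). LIG1 changed by -1.96 ± 0.14 with GSK032 and stood at -0.07 ± 0.14 with DAC (adjusted p = 0.708). That DAC value rests on libraries that lay apart: it was -0.39 without replicate 1 of that group, which passed (adjusted p = 0.0176), 0.24 without replicate 2 (adjusted p = 0.154) and -0.55 under equal FPKM sums, which passed. Most other members were as low with DAC: GINS1, of the same complex as GINS4, had 3.56 and 3.37 FPKM with GSK032 and 2.58 and 2.34 FPKM with DAC, against 19 and 15.7 FPKM in DMSO.

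**Figure D4:**
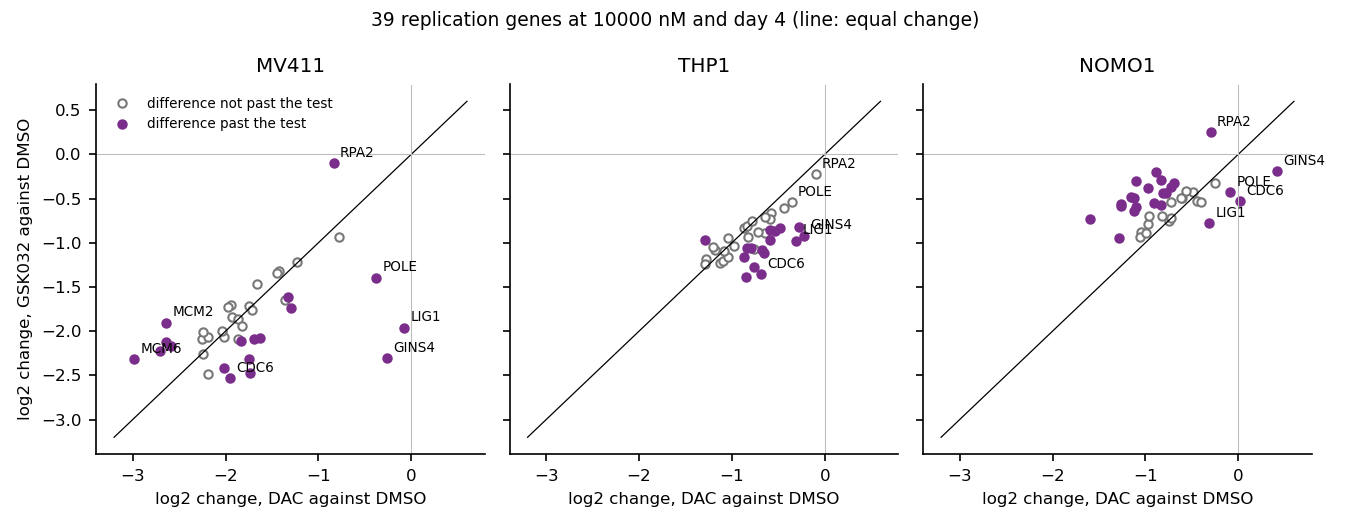
Log2 change against DMSO with DAC (x axis) and with GSK032 (y axis) at 10000 nM on day 4, 1 point per gene and 1 panel per line, filled where the direct difference passed. GINS4 and LIG1 sit far below the diagonal in MV411, at -0.26 and -0.07 with DAC, and GINS4 lies to the right of 0 in NOMO1.

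The difference of GINS4 and LIG1 was also measured without the replicate that stood apart. In MV411 the difference of GINS4 was -1.96 without DAC replicate 1, -2.14 without DAC replicate 2, -1.43 under equal FPKM sums and -2.05 in a fit of the compared libraries alone, where it still passed (adjusted p = 0.0347). LIG1 gave -1.57, -2.20 and -1.25 under the first 3 of these and passed, and did not pass with the compared libraries alone, where it was -1.89 (adjusted p = 0.065). POLE gave -0.84 without DAC replicate 1 and -1.19 without DAC replicate 2, which passed, and -0.38 under equal sums, which did not. At 2000 nM the GINS4 difference was -1.29 ± 0.21 in MV411, -0.72 ± 0.17 in THP1 and -0.62 ± 0.16 in NOMO1, and all passed, while at 400 nM it was -0.45, -0.28 and -0.37 and none did. At 10000 nM GINS4 differed by -0.69 ± 0.17 in THP1 and -0.60 ± 0.16 in NOMO1, and in NOMO1 GINS4 passed as higher with DAC (0.41 ± 0.16, adjusted p = 0.0276), a call lost without either DMSO library (0.46 and 0.37) or DAC replicate 2 (0.31). LIG1 differed by -0.67 ± 0.11 in THP1 and -0.46 ± 0.09 in NOMO1. With DAC in MV411 GINS4 had 36.3 and 27.4 FPKM at 3.2 nM, 32.1 and 34.1 FPKM at 16 nM, 30.0 and 22 FPKM at 80 nM, 19.6 and 12.8 FPKM at 400 nM, 18.4 and 14.5 FPKM at 2000 nM and 26.7 and 23.4 FPKM at 10000 nM, so the lowest libraries were those of 400 and 2000 nM and not of the highest dose.

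**Figure D5:**
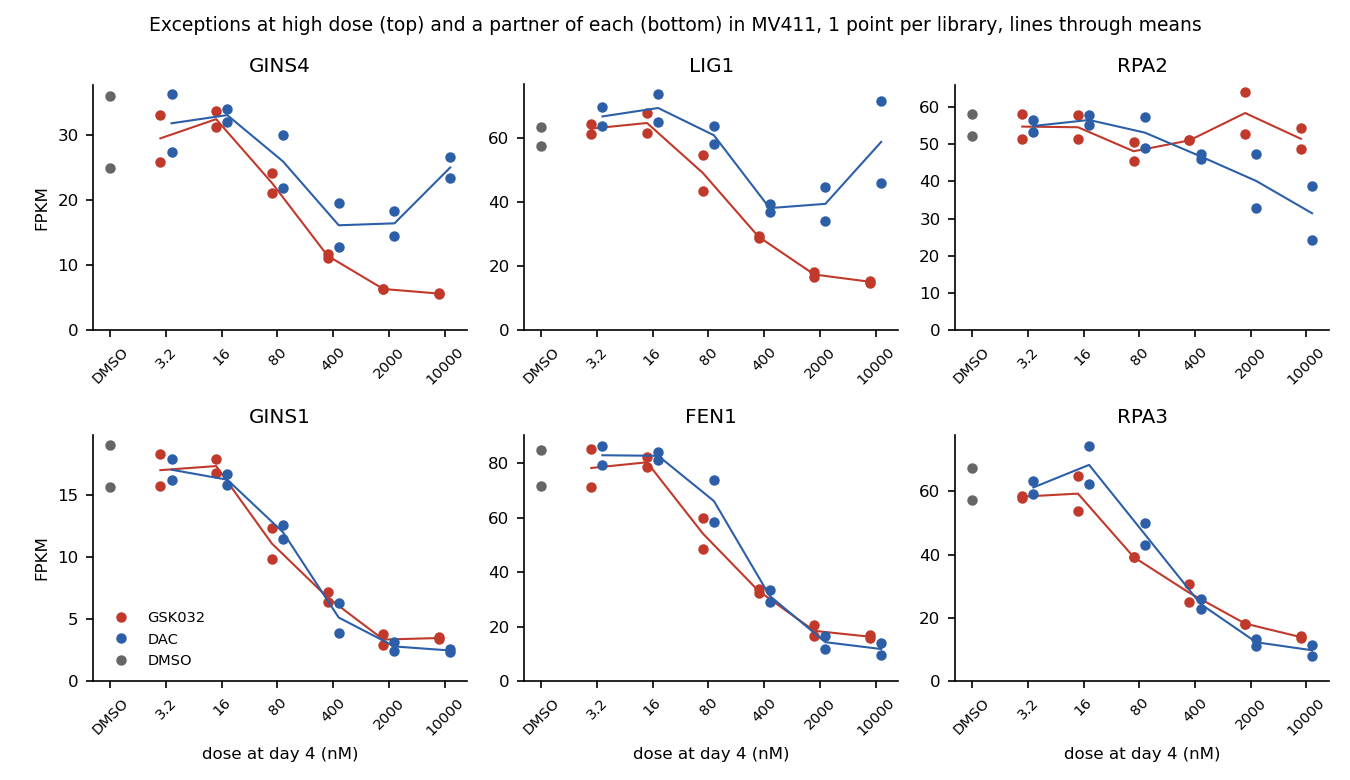
FPKM in each MV411 library on day 4 by dose (log axis, DMSO at the low end) with GSK032 and DAC, for GINS4, LIG1 and RPA2 (top) and for GINS1, FEN1 and RPA3 (bottom). In the bottom row the libraries of both compounds lie below DMSO from 400 nM up, and in the top row the DAC libraries of GINS4 and LIG1 at 10000 nM lie on either side of the lowest DMSO library.

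Counted over all 39 at 2000 nM on day 4, 3 genes were lower and 11 higher with GSK032 than with DAC in MV411 (backgrounds 11.5% and 18.6%), 6 and 6 in THP1 (20.6% and 13.7%), and 1 and 27 in NOMO1 (22.3% and 23.6%). At 10000 nM, the direct difference went both ways. In MV411 12 genes were lower and 6 higher with GSK032 than with DAC (backgrounds 14.2% and 24.1%), in THP1 15 and 1 (22.5% and 18.3%), and in NOMO1 4 and 19 (22.4% and 26.2%). The MV411 counts depend on the scaling and on single libraries. They were 2 lower and 23 higher under equal FPKM sums, 1 lower and 0 higher in a fit of the compared libraries alone, 7 lower without DAC replicate 1, and 3 higher without DAC replicate 2. Under equal FPKM sums THP1 had 4 lower and NOMO1 12 higher. The median difference of all tested genes at 10000 nM was 0.14 in MV411 and 0.03 in NOMO1. MCM6, MCM2 and FEN1 were among the genes higher with GSK032 in both of these lines. MCM6 differed by 0.67 ± 0.13 in MV411 and 0.70 ± 0.05 in NOMO1, MCM2 by 0.74 ± 0.15 and 0.87 ± 0.09, and FEN1 by 0.48 ± 0.16 and 0.80 ± 0.07. In MV411 these differences were 0.79, 0.93 and 0.75 without DAC replicate 1 for the 3 genes in that order. Without DAC replicate 2 they were 0.54, 0.54 and 0.21, and FEN1 did not pass. CDC6 was lower with GSK032 than with DAC in all 3 lines, the difference being -0.58 in MV411, where equal FPKM sums turned it to 0.03 and leaving out DAC replicate 1 left -0.27 (adjusted p = 0.179), -0.68 in THP1 and -0.55 in NOMO1. In NOMO1 CDC6 fell with GSK032 (-0.53 ± 0.13) and stood at 0.02 ± 0.13 with DAC.

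RPA2, the phosphorylated middle subunit of RPA, was the only member that passed as higher with GSK032 at 400 nM on day 6, in MV411 and NOMO1. With DAC at 10000 nM on day 4 other members followed the rest less than RPA2, among them GINS4 and LIG1 in MV411 and GINS4 in NOMO1. On day 6 at 400 nM it had 79.7 and 83.2 FPKM with GSK032 and 72.7 and 65.8 FPKM with DAC, against 61.3 and 61 FPKM in DMSO in MV411. THP1 had 32.5 and 31.2 FPKM with GSK032 and 29.6 and 30.7 FPKM with DAC, against 36.2 and 35.6 FPKM in DMSO. In NOMO1 RPA2 had 57.2 and 56.3 FPKM with GSK032 and 41.3 and 43.8 FPKM with DAC, against 48 and 49.5 FPKM in DMSO. Treated MV411 libraries were above DMSO, and those of NOMO1 lay above DMSO with GSK032 and below it with DAC. RPA2 passed as higher with GSK032 in MV411 (0.41 ± 0.15, adjusted p = 0.0365) and NOMO1 (0.22 ± 0.06, adjusted p = 0.00266), and in THP1 it was -0.17 ± 0.08 (adjusted p = 0.101). In MV411 that call was lost under equal FPKM sums (0.30, adjusted p = 0.0999), with no filter on low values (adjusted p = 0.0653) and without any 1 of the 4 compared libraries (adjusted p = 0.0858 to 0.154, 0.38 to 0.44). In NOMO1 it was lost under equal FPKM sums (0.31, adjusted p = 0.148) and with the compared libraries alone (adjusted p = 0.0755). With DAC it passed as lower in THP1 (-0.25 ± 0.08) and in NOMO1 (-0.19 ± 0.06), calls lost under equal FPKM sums (-0.35, adjusted p = 0.0754, in THP1, and 0.12, a turn of direction, in NOMO1), and was 0.18 ± 0.15 in MV411 (adjusted p = 0.435). At 10000 nM on day 4 RPA2 was -0.10 ± 0.15 with GSK032 and -0.83 ± 0.15 with DAC in MV411, the GSK032 value turning to 0.07 under equal FPKM sums, and the direct difference of 0.74 ± 0.15 passed. Without DAC replicate 1 the DAC change was -1.17 and the difference 1.07. Without DAC replicate 2 they were -0.50 and 0.41 (adjusted p = 0.0446 for the difference), under equal FPKM sums the difference was 1.37, and with the compared libraries alone it did not pass (adjusted p = 0.223). In NOMO1 it passed as higher with GSK032 (0.25 ± 0.06) and as lower with DAC (-0.29 ± 0.06), and under equal FPKM sums neither passed (0.33, adjusted p = 0.0684, and -0.21, adjusted p = 0.245).

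Genes that act around the replication machinery moved in the same direction in MV411 and THP1. Of all tested genes, 17.3% fell and 15.9% rose with GSK032 at 400 nM on day 4 in MV411, 13.8% and 9.21% in THP1 cells, and 8.29% and 10.2% in NOMO1. With DAC the shares were 19% and 16.8% in MV411, against 19.4% and 19.1% in THP1 cells and 26.2% and 26.1% in NOMO1. Of 30 other replication factors, 22 fell and 1 rose with GSK032 at 400 nM on day 4 in MV411. In THP1 21 fell and 1 rose, and in NOMO1 4 fell and 2 rose. Of 10 enzymes of nucleotide supply 9 fell in MV411, 7 in THP1 and 2 in NOMO1, of 10 replication checkpoint genes 7, 7 and 2, and of 15 mitosis genes 15, 12 and 1. Of 28 E2F and RB pathway genes 20 fell and 2 rose in MV411. Of the same list 18 fell and 1 rose in THP1, and 9 fell and 4 rose in NOMO1. With DAC 18 of these 28 fell and 3 rose in MV411, 16 and 5 in THP1 cells, and 12 and 10 in NOMO1. RRM2, the ribonucleotide reductase subunit that limits deoxynucleotide supply, changed by -1.58 ± 0.13 in MV411, E2F1 by -1.06 ± 0.16, the S phase cyclin CCNE2 by -1.29 ± 0.14 and the mitotic kinase CDK1 by -1.39 ± 0.10, and the proliferation marker MKI67 changed by -0.92 ± 0.28. With DAC in NOMO1, where 37 of the 39 fell, none of these 5 passed as lower: RRM2 rose (0.36 ± 0.07), and E2F1 was 0.14 ± 0.15 (adjusted p = 0.468), CCNE2 0.17 ± 0.09 (adjusted p = 0.132), CDK1 -0.03 ± 0.12 (adjusted p = 0.903) and MKI67 -0.12 ± 0.20 (adjusted p = 0.665). DAC nevertheless lowered 22 of the 30 other replication factors and 11 of the 15 mitosis genes in NOMO1. CDKN1A, the inhibitor p21 that blocks S phase entry, rose with DAC in all 3 lines, by 0.79 in MV411, 1.46 in THP1 and 1.45 in NOMO1, and fell with GSK032 in MV411 (-0.65 ± 0.20). DNMT1 fell with GSK032 in MV411 (-0.42 ± 0.09) and THP1 (-0.27 ± 0.07), was -0.06 ± 0.11 in NOMO1, and fell with DAC in all 3 lines (-0.69, -0.64 and -0.40).

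Most myeloid markers tested in MV411 rose at 400 nM on day 4, while the replication genes fell. Of 9 myeloid markers tested in MV411 6 rose and 0 fell with each compound at 400 nM on day 4 (15.9% of all tested genes rose with GSK032 and 16.8% with DAC). The summed level of the 10 listed was 3917 and 3559 FPKM with GSK032 and 2702 and 2239 FPKM with DAC, against 1186 and 1024 FPKM in DMSO. On day 6 it was 8644 and 9997 FPKM with GSK032, 3210 and 3144 FPKM with DAC, and 745 and 843 FPKM in DMSO. LYZ, the lysozyme of monocytes and granulocytes, made up most of the sum with GSK032. CD14, a receptor of mature monocytes, had 0.246 and 0.238 FPKM with GSK032 and 0.315 and 0.213 FPKM with DAC, against 0.28 and 0.192 FPKM in DMSO on day 4. In NOMO1 the sum on day 4 was 7212 and 7428 FPKM with GSK032 and 3274 and 3757 FPKM with DAC, against 5799 and 6023 FPKM in DMSO. With DAC 4 of 10 fell and 2 rose in NOMO1, against 26.2% and 26.1% of all tested genes at 400 nM on day 4. There CD14 had 7.37 and 8.59 FPKM with GSK032 and 49.9 and 71.7 FPKM with DAC, against 1.77 and 1.82 FPKM in DMSO. In THP1 the sum lay between 577 and 1045 FPKM over all treated libraries, against 651 to 964 FPKM in DMSO. Over all libraries of the 3 lines the summed erythroid markers stayed between 0.00739 and 5.33 FPKM with treatment, against 0.0518 to 1.11 FPKM in DMSO. Of 6 stromal and epithelial markers tested in NOMO1, 3 rose with GSK032 and 6 with DAC at 400 nM on day 4 (10.2% and 26.1% of all tested genes rose). The sum of the 7 listed reached 159 FPKM in treated NOMO1 libraries, against at most 34 FPKM in DMSO. In THP1 it reached 48.8 and 53.4 FPKM with DAC at 10000 nM, against at most 2.21 FPKM in DMSO, with COL1A1 at 19.7 and 25.7 FPKM. In NOMO1 KRT18 alone had 68.3 and 82 FPKM with DAC at 400 nM on day 4, against 29.6 and 29.5 FPKM in DMSO. Of 4 lymphoid markers tested there 3 rose with each compound (at 400 nM on day 4 10.2% of all tested genes rose with GSK032 and 26.1% with DAC). The sum of the 7 listed ran from 91 to 286 FPKM with treatment, against 113 to 149 FPKM in DMSO, with CD3D at 161 and 148 FPKM with DAC and 12.6 and 10.3 FPKM in DMSO while CD3E was near 0. In MV411 the lymphoid sum ran from 13.8 to 48.9 FPKM with treatment, against 28.9 to 61.8 FPKM in DMSO, and in THP1 from 5.26 to 23.3 FPKM, against 12.3 to 23.2 FPKM. The part of these shifts in the change of the replication genes was not tested.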

How the data were processed

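Total RNA of 156 libraries was measured, 52 for each of 3 cell lines. The authors deposited FPKM per gene in 1 table a line. The submitters' processing notes name hg38, DESeq2 (no version) and Salmon 0.12.0 with no role for any of them, and how reads became FPKM is not given in the sources used here. If the values were scaled to the mapped fragments of a library, a few abundant genes that rise would lower all others. In MV411 the median ratio of a library to the geometric mean of that line's libraries ran from 0.862 to 1.09. The FPKM sums there ran from 1331 to 3073 in units of 1000. Which scaling was used was not tested. Of the 59939 identifiers 94.3% were in GENCODE 29, which gave the names. Deposited log2 fold changes were not used. Read counts were not used here. From 9851 genes with 1 transcript, the median depth was estimated at 73.2, 71.5 and 76.2 M fragments in MV411, THP1 and NOMO1. Only 53.5 to 89.9% of their values came back as whole numbers within 0.15, so counts were not recovered and no counting interval is given.

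From the deposited FPKM, log2(FPKM + 0.5) was computed and fitted in each line with limma 3.58.1 in R 4.3.3, with a mean for each of 26 groups, 26 residual degrees of freedom and variances moderated with a trend. A gene entered the test when 2 or more libraries of the line reached 1 FPKM, which left 22007 genes for MV411, 23226 for THP1 and 20763 for NOMO1. The Benjamini-Hochberg adjustment ran over all of them in each comparison. A pass was an adjusted p below 0.05, and a change of at least 1 on the log2 scale was counted apart. The steps were tested on simulated data. The members and lists were chosen with earlier results of these data known. Values in each library are given for the gene of each role with the highest mean in DMSO, and at 400 nM on day 4 the 5 largest and 3 smallest changes of a line were named. Promoters and start sites are from RefSeq, GRCh38.p14. Alternatives were other pseudocounts and scalings, no filter, a replicate block, the compared libraries alone and each replicate left out. In MV411, 4 libraries carry no replicate number, and the order of its columns leaves it unclear whether the numbers of its day 6 libraries are exchanged within groups.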

Additional observations from a re-analysis of the deposited data

Results flagged for a closer look

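These results were marked because an effect differs between days or between lines.

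The effect at 400 nM differed between day 6 and day 1 by the interaction of compound and day, which was tested within each line. With GSK032 it was lower on day 6 for 37 genes in MV411, 34 in THP1 and 5 in NOMO1 (10.2%, 9.57% and 6.12% of all tested genes). With DAC it was lower for 36, 38 and 38 (7.7%, 14.8% and 22.6%).

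In RPA2 and GINS4 both libraries of 1 line moved one way and both of another line the other way, and the difference between lines was not tested. RPA2 with GSK032 at 400 nM was -0.11 in MV411, -0.20 in THP1 and 0.15 in NOMO1 on day 4, and 0.41, -0.17 and 0.22 on day 6. Under equal FPKM sums the MV411 value of day 4 turned to 0.18, and that of day 6 was 0.30 and did not pass. RPA2 with DAC at 400 nM on day 6 was 0.18, -0.25 and -0.19, and with GSK032 at 10000 nM on day 4 it was -0.22 in THP1 and 0.25 in NOMO1. GINS4 with DAC on day 4 was -0.90 in MV411, -0.23 in THP1 and 0.17 in NOMO1 at 400 nM, and -0.22 in THP1 and 0.41 in NOMO1 at 10000 nM.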

How the results depend on the processing

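The 42 counts that answer a comparison stayed within 1.5 times under pseudocounts of 0.1 and 1. A fit of the compared libraries alone changed 16 of the 42 by more than that, and scaling to equal FPKM sums 13. The scaling moved the median of all genes by up to 0.69 on the log2 scale, in GSK032 against DAC at 10000 nM in MV411. In MV411 it gave 20 genes higher with GSK032 than with DAC at 400 nM on day 4, and 2 lower and 23 higher at 10000 nM. There ORC6 turned to 0.34, CDC6 to 0.026, CDT1 to 0.23, RFC4 to 0.21, RFC5 to 0.33, CHAF1A to 0.18 and CHAF1B to 0.071. In THP1 it gave 5 genes lower with GSK862, 0 lower with GSK032 than with DAC at 400 nM on day 4, and 4 lower and 0 higher at 10000 nM. In NOMO1 it gave 0 genes lower with GSK032 at 400 nM on day 4, 1 on day 6 and 22 at 10000 nM, 1 lower with GSK862, 1 lower with GSK032 than with DAC at 400 nM on day 6, and 12 higher at 10000 nM, and RPA2 with DAC on day 6 turned to 0.12. The cause was not tested.

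Median-ratio scaling gave 1 gene lower with GSK032 than with DAC at 400 nM on day 4 in both MV411 and NOMO1, and no filter gave 0 higher at 10000 nM in THP1. In fits of the compared libraries alone, which have few residual degrees of freedom, the counts for MV411 were 19 with GSK862, 0 higher with GSK032 than with DAC at 400 nM on day 4, and 1 lower and 0 higher at 10000 nM. Those for THP1 were 6 lower with GSK032 on day 4 and 20 on day 6 at 400 nM, 0 with GSK862, 0 lower and 0 higher with GSK032 than with DAC on day 4, 5 higher on day 6, and 8 lower and 0 higher at 10000 nM. Those for NOMO1 were 2 lower with GSK032 on each of days 4 and 6, 0 with GSK862, and 1 lower with GSK032 than with DAC on day 4.

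Libraries with the same number deviated together weakly (correlations of 0.025 to 0.265), and neither this nor the labels establish a pairing. With a replicate block NOMO1 had 14 genes lower with GSK032 at 400 nM on day 4, 10 with GSK862 and 1 lower with GSK032 than with DAC, and THP1 had 3 lower with GSK032 than with DAC on day 4. The other 36 counts of the block stayed within 1.5 times.

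With 1 library left out, its partner was assumed to vary like the other groups. The counts higher with GSK032 than with DAC ran from 0 to 2 in MV411 and from 1 to 11 in THP1 at 400 nM on day 4, and from 3 to 8 in MV411 and 0 to 1 in THP1 at 10000 nM. Those lower ran from 7 to 13 in MV411 at 10000 nM and from 0 to 2 in THP1 at 400 nM. GSK862 gave 15 to 22 in THP1 and 3 to 5 in NOMO1. The other 34 counts stayed within 1.5 times. No difference was set against counting error.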
